A study of Mus musculus with 2 samples.

Results

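The Mrgprg Rgs6 Hpse2 fibroblasts of the superficial cervical lymphatic system are a small set of stromal cells in which at least 3 of the genes Mrgprg, Rgs6, Hpse2 and Gabra2 were found together. A cell was counted as a member when a transcript of Pdgfra, of Dcn and of at least 3 of those 4 rule genes was present, so the values that chose the members are these 6 genes, and their levels are given as a description. In all, 441 of 14300 cells were members, 134 of 6992 in the library of aged mice and 307 of 7308 in the library of adult mice. Both libraries were droplet single-cell RNA libraries of FACS-sorted cells, taken from the lymphatics that lead into the submandibular nodes of FVB/N mice with the Prox1-GFP genotype, a reporter of the lymphatic endothelial factor Prox1. The aged mice were 93 weeks old and the adult mice 12 weeks old, and each library pooled 6 mice. With 1 library per age, no difference between ages has a replicate check: all intervals cover counting error only, and age, pool and library cannot be told apart. The labels give neither the sort gate nor the sex of the mice.

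The deposited aged table held 13969 cells, of which 6977 carried a barcode that was also in the adult table; these were dropped from the aged library. All 307 adult members were among the shared barcodes. In the aged table the same 307 cells had a median of 8108 unique molecular identifiers (UMIs, counted transcripts), against 16057 in the adult table, and 138 of them (45.0%) still met the rule. At the lower depth 132 of the 307 copies had 3 rule genes, 39 had 4 and 96 had 2, and some of those with 3 or 4 lacked Pdgfra or Dcn, so membership depended on depth. Levels per UMI differed less: as CPM, the summed UMIs of a gene scaled to 1000000 UMIs of the cells, Mrgprg stood at 403 in the copies and 401 in the adult table, and Hpse2 at 418 and 423. Gabra2 stood at 100.2 CPM in the copies and 121 CPM in the adult table. Among the cells kept, members had a median of 15698 UMIs in the aged library and 16057 in the adult library, against 12500 and 13318 UMIs in the other fibroblasts, meaning all other cells with Pdgfra and Dcn.

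Fibroblasts around vessels make and remodel the collagen-rich matrix, and those of the outer coat, marked by Pi16 and Dpp4, are found around vessels of many organs. The genes that name the present cells are better known from other tissues. Mrgprg encodes an orphan receptor of the Mas-related family, which was described in sensory neurons of the mouse, and Rgs6 encodes a protein that shortens G protein signals. Hpse2 encodes heparanase 2, a secreted protein that binds heparan sulfate and holds back the enzyme heparanase, and Gabra2 encodes a subunit of a chloride channel opened by the transmitter GABA. Krt19 is a keratin of simple epithelia and Nav3 a microtubule-binding protein named for neuron navigation.

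The rule genes were far above the other fibroblasts in members, as the rule requires, but the mix of rule genes differed between the ages. Mrgprg stood at 515 CPM in aged members, against 35.96 CPM in other aged fibroblasts, and at 401 CPM in adult members, against 47.8 CPM in other adult fibroblasts. Rgs6 stood at 436 and 33.4 CPM in aged members and other aged fibroblasts, and at 314 and 19.4 CPM in the adult pair. Gabra2, the rarest of the 4, stood at 115 and 4.25 CPM in the aged pair and at 121 and 4.16 CPM in the adult pair. Hpse2 was the gene most often missing in aged members. It was found in 48.5% of them and in 81.8% of adult members, and it was the absent gene in 69 of the 118 aged members with exactly 3 rule genes and in 56 of the 229 such adult members. Its level was 146 CPM in aged members, against 10.7 CPM in other aged fibroblasts, and 423 CPM in adult members, against 70.6 CPM in other adult fibroblasts.

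Endothelial cells of the same libraries gave the background of stray transcripts. Among 382 aged endothelial cells (at least 3 of Prox1, Flt4, Pecam1 and Cdh5, no Pdgfra, median 6084 UMIs), Mrgprg was found in 0.524% and Hpse2 in 0 cells, with a 95% Clopper-Pearson upper bound of 0.961%. Among 644 adult endothelial cells (median 7400 UMIs), Mrgprg, Rgs6 and Hpse2 were each found in 0.621%. Smooth muscle cells were different for 2 rule genes: Rgs6 was found in 52.6% of 78 aged and in 40.0% of 110 adult cells with Myh11 and Cnn1, and Hpse2 in 5.13% and 25.5%. Rgs6 and Hpse2 alone therefore do not mark these fibroblasts, while Mrgprg was found in 2.56% and 0.909% of the smooth muscle cells.

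The label genes that the rule did not use were high in members of both libraries. Krt19 stood at 163 CPM in aged members, against 27.8 CPM in other aged fibroblasts, and at 189 CPM in adult members, against 41.3 CPM in other adult fibroblasts. It was found in 54.5% of aged and 63.5% of adult members. Nav3 was found in 99.3% of members of either library, at 1542 and 416 CPM in the aged pair and 1678 and 346 CPM in the adult pair. The log2 ratio of members over other fibroblasts was 2.51 for Krt19 in the aged library (95% counting interval 2.34 to 2.67) and 2.17 in the adult library (2.06 to 2.27), and that of Nav3 was 1.89 (1.84 to 1.94) and 2.28 (2.24 to 2.31). Of 10 epithelial markers, Epcam, Krt8, Krt18, Cdh1, Krt5, Krt14, Cldn4, Cldn7 and Elf3 were at 0 UMIs in all members, and Krt7 had 1 UMI in adult members. Of 8 measured genes of a list of keratins and junctions, 3 were at least 1.5-fold higher and 2 lower in each library, while 12.4% of all measured genes were higher and 7.5% lower in aged members and 7.79% and 7.55% in adult members. Krt19, a label gene of these cells, is in that list and counts among the higher genes. The keratins Krt23 and Krt80 were higher with Krt19, Krt23 at 19.6 and 7.74 CPM in the aged pair and at 26.7 and 5.11 CPM in the adult pair. The claudin Cldn3 was found in 49.2% of aged and 57.2% of adult members of cluster 2, which held more members of each library (61 aged, 208 adult) than any other cluster.

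**Figure D1:**
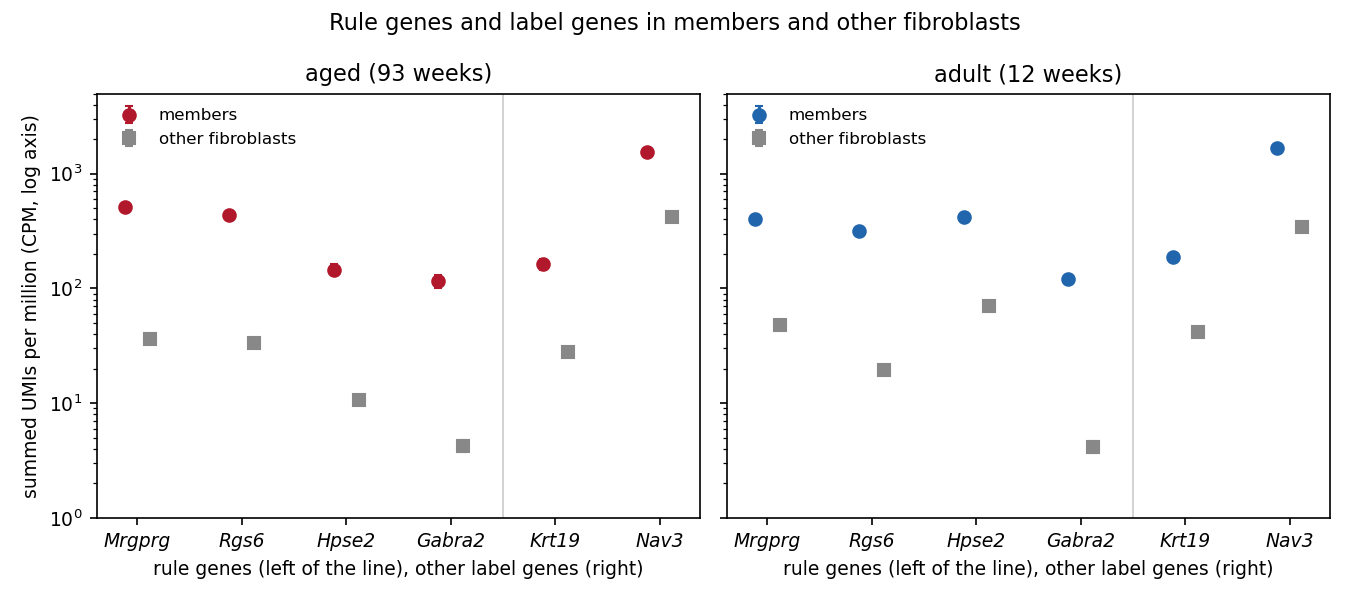
Level of the 4 rule genes and of Krt19 and Nav3 as CPM of summed UMIs on a log axis, in members (circles) and other fibroblasts (squares) of the aged and adult libraries; 95% Poisson intervals are mostly smaller than the symbols. Krt19 and Nav3, which the rule did not use, lay above the other fibroblasts in both libraries, Krt19 at 163 and 27.8 CPM in the aged library and 189 and 41.3 CPM in the adult library.

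Several defining markers of other cell classes were at or near 0 in members, while single markers of those classes were not. Ptprc and Cd52 of immune cells, Lyve1 of lymphatic endothelium and Sox10 and Foxd3 of Schwann cells were at 0 UMIs in both sets of members, and Prox1 stood at 7.95 CPM in aged and 9.22 CPM in adult members, against 8.02 and 12.9 CPM in the other fibroblasts. The summed level of 8 smooth muscle markers was 8.41 CPM in aged members, against 59.3 CPM in other aged fibroblasts, and 30.8 CPM in adult members, against 102 CPM in other adult fibroblasts. The 12 immune markers summed to 119 CPM in aged and 96.1 CPM in adult members, against 87.8 and 68.9 CPM in the other fibroblasts. Nearly all of that immune sum was Cd3e, at 115 CPM in aged and 94.3 CPM in adult members, a gene that other fibroblasts also held at 83.8 and 62.4 CPM, while 8 of the 12 markers in aged members and 7 in adult members were at 0. The 8 lymphatic endothelial markers summed to 253 CPM in aged and 276 CPM in adult members, against 166 and 210 CPM in the other fibroblasts, of which Pdpn, which many fibroblasts express, gave 243 and 264 CPM in members and 156 and 194 CPM in the others. The 8 Schwann cell markers summed to 68.2 and 59.0 CPM in aged and adult members, against 31.9 and 37.8 CPM, of which the myelin gene Mbp gave 63.1 and 55.3 CPM in members and 19.3 and 22.6 CPM in the others. The 17 perineurial and nerve sheath markers summed to 761 and 941 CPM, against 2356 and 3732 CPM, with Ntn4 higher in members (log2 ratios 1.57 and 1.59) and Apod lower (-3.11 and -3.32). The part of other cells in these levels was not tested.

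Krt19 and Nav3 were higher on the inner side of the threshold than just outside it. In the aged library, 4455 fibroblasts had none of the 4 rule genes, 775 had 1, 296 had 2, 118 had 3 and 16 had 4. The adult library held 3732, 1142, 420, 229 and 78 such cells. Just outside the threshold, cells with 2 rule genes had Krt19 at 102 CPM in the aged and 127 CPM in the adult library. Just inside it, cells with 3 had 156 CPM in the aged and 190 CPM in the adult library. Nav3 followed the same order, at 1126 CPM with 2 rule genes and 1506 CPM with 3 in the aged library, and at 1102 CPM with 2 and 1602 CPM with 3 in the adult library. Not every gene was higher with each further rule gene: adult Krt19 stood at 186 CPM with 4 rule genes and 190 CPM with 3, aged Nefl at 23.9 and 35.0 CPM, and aged Sntb1 was at 0 with 4 and at 2.12 CPM with 3. With 4 and 3 rule genes these levels rest on 240 and 724 UMIs of adult Krt19, 6 and 66 of aged Nefl and 0 and 4 of aged Sntb1. The steps were not tested against counting error. Median UMIs also differed along this series, at 12097 with none and 15698 with 3 rule genes in the aged library and at 12676 and 16028 in the adult library; the part of depth in these differences was not tested.

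**Figure D2:**
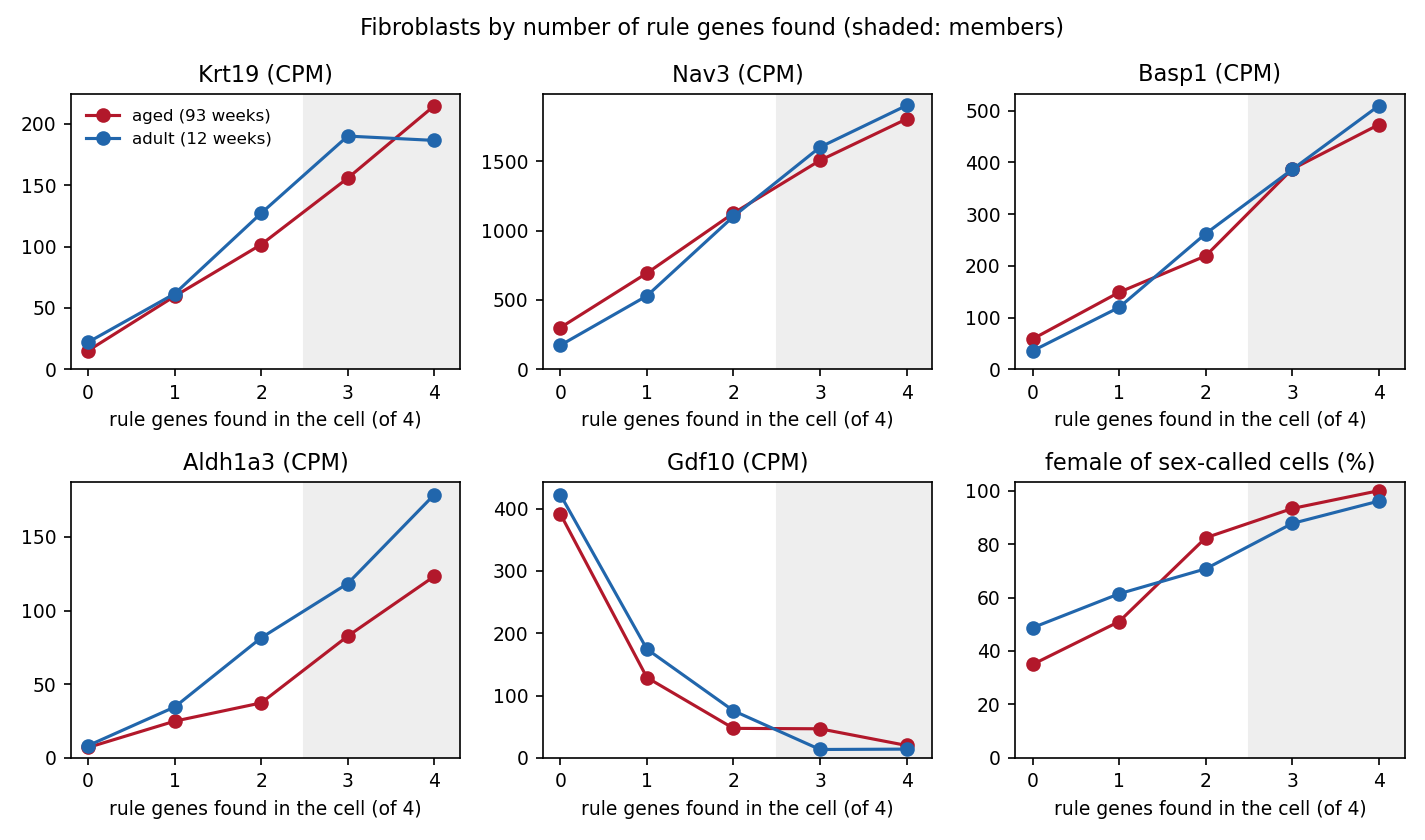
Fibroblasts of each library grouped by how many of the 4 rule genes were found (horizontal axis; shaded groups are members), with the CPM of Krt19, Nav3, Basp1, Aldh1a3 and Gdf10 and the percentage of female cells among cells with a sex call. Krt19, Nav3, Basp1 and Aldh1a3 were higher and Gdf10 lower with 3 rule genes than with none, and the female share was 93.3% with 3 rule genes against 35.0% with none in the aged library, and 87.7% against 48.7% in the adult library.

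What set members apart from other fibroblasts was shared by the libraries: of 236 genes at least 2-fold higher in adult members, 172 were also at least 2-fold higher in aged members and 234 lay above equality. Of 322 genes at least 2-fold lower in adult members, 239 were at least 2-fold lower and 314 lay below equality in aged members. These are counts over 8869 genes measured in both libraries, without the rule genes, Pdgfra and Dcn; measured means found in at least 10% of the cells of either set with at least 50 UMIs in all. In the aged library 3.82% of 9108 measured genes were 2-fold higher and 3.65% were 2-fold lower in members, and in the adult library 2.84% of 9396 were higher and 3.97% lower. Across the 8869 genes the log2 ratios of the libraries had a Pearson r of 0.845, a description across genes, which are not independent replicates. The median log2 ratio of all measured genes was 0.11 in the aged and 0.05 in the adult library, so a ratio of that size is no difference.

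Of the 15 genes furthest above other fibroblasts in adult members, 14 were also more than 2-fold higher in aged members. Akr1c18, the hydroxysteroid dehydrogenase that inactivates progesterone in mice, stood at 77.6 CPM in aged members and 11.3 CPM in other aged fibroblasts, and at 50.2 and 3.11 CPM in the adult pair. Its log2 ratio was 2.68 (2.44 to 2.92) in the aged and 3.64 (3.41 to 3.86) in the adult library. Akr1c18 was found in 38.8% of aged and 21.2% of adult members, and the tenth of adult members with most UMIs held 81.6% of them. Duox2, an oxidase that makes hydrogen peroxide, stood at 70.1 and 3.56 CPM in the aged pair and at 38.1 and 3.52 CPM in the adult pair. Its aged level differed between clusters, at 151 CPM in the 42 aged members of cluster 16, described with the clusters, and 24.8 CPM in the 61 aged members of cluster 2. Aldh1a3, which makes retinoic acid, was found in 50.7% of aged members (87.4 CPM, against 11.8 CPM in other fibroblasts) and in 73.6% of adult members (134 CPM, against 21.4 CPM). The median aged member had 41.0 CPM of Aldh1a3 and no UMI of Akr1c18 or Duox2. At such levels a single cell holds few UMIs, and spread between members beyond counting error was not tested.

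Several of the 15 are known from neurons. The neurofilament chain Nefl stood at 33.7 CPM in aged members, against 2.47 CPM in other aged fibroblasts, and at 55.9 CPM in adult members, against 6.29 CPM in other adult fibroblasts. Nefm, the medium chain, had log2 ratios of 1.77 in the aged and 2.88 in the adult library, and was found in 11.2% of aged and 22.5% of adult members. Basp1, a membrane protein of growing axons, was the most abundant of the 15, at 397 and 83.2 CPM in the aged pair and at 418 and 77.0 CPM in the adult pair. Dync1i1, a chain of the motor dynein, had log2 ratios of 3.06 and 3.14, and Lrrc7, a scaffold of postsynaptic densities, 4.09 and 2.79, each with the aged library first. Most members held no UMI of them: Dync1i1 was found in 23.9% of aged and 11.7% of adult members, Lrrc7 in 24.6% and 12.4%. The tenth of adult members with most UMIs held 95.4% of the Dync1i1 and 94.6% of the Lrrc7 UMIs, so these ratios rest on few cells. Lrrc7 likewise stood at 142 CPM in aged members of cluster 16 and 22.7 CPM in those of cluster 2. Nkain2, a partner of the sodium pump, had 2.42 and 3.64 in the same order, but only 8.21% of aged members held a UMI of it.

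The remaining genes were the ligand Bmp6, with log2 ratios of 2.71 in the aged and 2.48 in the adult library, Tmeff1 (3.13 and 2.97), Tmem229a (3.69 and 2.76), the polycystin relative Pkd1l2 (2.17 and 2.60) and ENSMUSG00000121404 (3.05 and 3.13), which the table gives by its identifier alone. Sntb1, a syntrophin of the membrane skeleton, was the exception. It stood at 1.87 CPM in aged members, against 1.16 CPM in other aged fibroblasts, and at 23.3 CPM in adult members, against 3.28 CPM in other adult fibroblasts. Its log2 ratio was 0.41 (-0.54 to 1.44) in the aged and 2.51 (2.21 to 2.80) in the adult library, so no excess was detectable in aged members.

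The 10 genes furthest below other fibroblasts in adult members were all more than 2-fold lower in aged members too. Gdf10, a ligand of the TGF-beta family, stood at 43.5 CPM in aged members, against 328 CPM in other aged fibroblasts, and at 13.5 CPM in adult members, against 331 CPM in other adult fibroblasts. Apoe, the lipid carrier, stood at 66.8 and 954 CPM in the aged pair and at 68.6 and 1234 CPM in the adult pair. The terminal complement component C7 stood at 36.5 and 215 CPM in the aged pair and at 15.5 and 285 CPM in the adult pair. The log2 ratios of the other 7 ranged from -2.37 for Mlana to -3.71 for Mfap4, a microfibril protein, in the aged library, and from -3.97 for Tspan11 to -4.61 for Mlana in the adult library; they include Gas6, the ligand of the Axl receptor, the methyltransferase Inmt and the metalloreductase Steap4. All 10 ratios were closer to 0 in the aged library; the counting intervals of the libraries overlapped for Mfap4, Steap4, Tspan11 and Apoe and not for the other 6. Among female-called cells alone the aged ratios of Gas6 (-6.24) and C7 (-5.72) were further from 0 than the adult ones (-4.75 and -3.86), so the aged values above depend on the 21 aged members that were male-called or had no call.

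**Figure D3:**
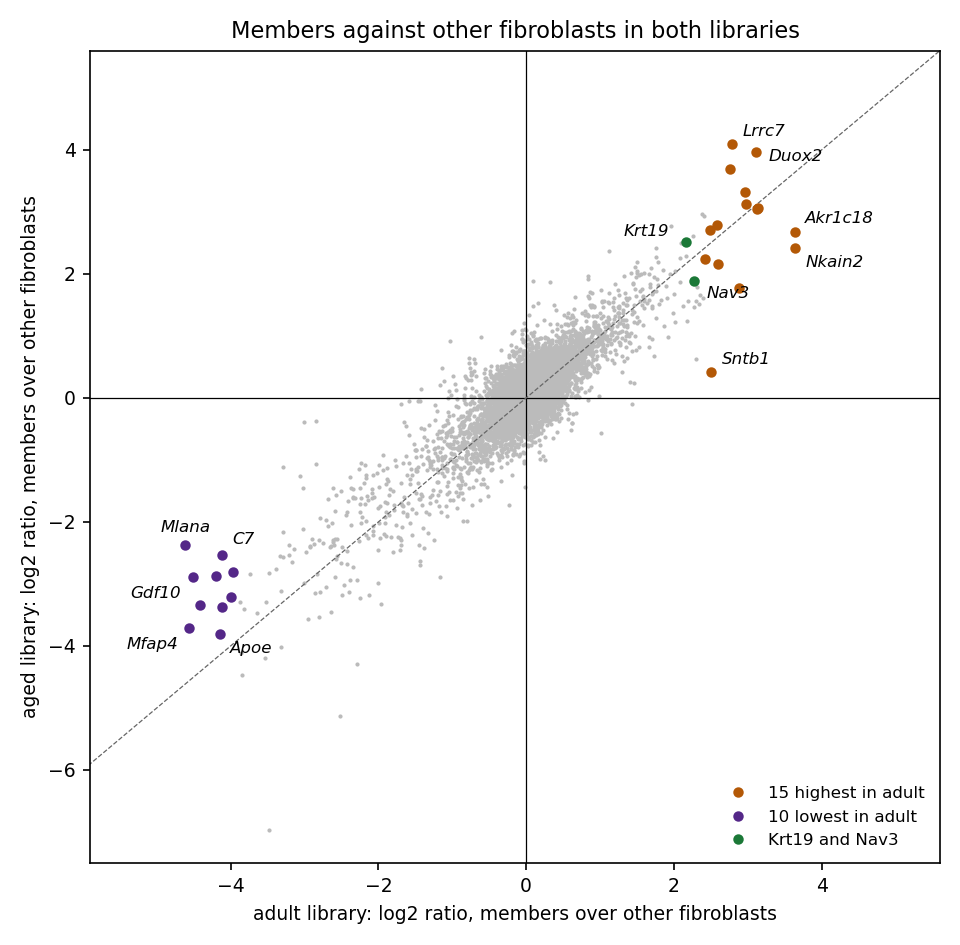
Log2 ratio of CPM, members over other fibroblasts, in the adult library (horizontal) and the aged library (vertical), 1 point per measured gene without the rule genes; the dashed line marks equal ratios. The 15 highest and 10 lowest genes of the adult library are coloured, and 24 of the 25 lay on the same side of 0 by more than 1 log2 unit in the aged library, the exception being Sntb1 at 0.41.

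Markers of outer-coat (adventitial) fibroblasts were level or higher in members. Of 16 adventitial markers, 7 were at least 1.5-fold higher in aged members and 10 in adult members, and none was 1.5-fold lower; the medians were 0.50 and 0.82. Over all measured genes, 12.4% were 1.5-fold higher and 7.5% lower in the aged library, and 7.79% and 7.55% in the adult library. Sbsn, suprabasin, stood at 301 CPM in aged members, against 108 CPM in other aged fibroblasts, and at 300.1 CPM in adult members, against 67.8 CPM in other adult fibroblasts. The Wnt ligand Wnt2 had log2 ratios of 1.46 and 2.28, the complement regulator Cd55 1.45 and 1.70, each with the aged library first. The semaphorin Sema3c stood at 770 CPM in aged members, against 385 CPM in other aged fibroblasts, and at 1305 CPM in adult members, against 496 CPM in other adult fibroblasts. Of the 7 other fibroblast sets compared in the aged library and the 9 in the adult library, those with Pi16 and Sbsn were the most alike in the log2 CPM of genes, with a Pearson r of 0.972 across 8859 genes in the aged and 0.979 across 9087 genes in the adult library. The set with Ctla2a, Krtdap and Bmp3, compared in the adult library alone, followed closely at 0.972. The same likeness to all other fibroblasts was 0.951 and 0.958. In the aged library 72.4% of members also met the Pi16 Sbsn gate, against 29.9% of other fibroblasts, and in the adult library 73.9%, against 20.4%.

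Against the Pi16 Sbsn cells outside the set, 14 of the 15 high genes also stood higher in members of both libraries. For Sntb1 this held in the adult library (2.28), while its aged log2 ratio of 0.63 had an interval that includes 0 (-0.36 to 1.66). Pi16 itself was close, at 2705 CPM in aged members and 2968 CPM in aged Pi16 Sbsn cells, and at 3124 and 2599 CPM in the adult pair. Duox2 had log2 ratios over Pi16 Sbsn cells of 3.51 in the aged and 2.20 in the adult library, Nefl 2.62 and 1.95, Akr1c18 1.42 and 2.08, and Krt19 1.79 and 1.40. The genes that were low in members were also low against this nearest set, with log2 ratios of -2.11 and -2.82 for Apoe and -1.34 and -3.48 for Gdf10. For Mlana the aged log2 ratio of -1.06 had an interval that includes 0 (-1.99 to 0.05). Cells that met both rules were counted as members here.

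Guidance molecules of axons and vessels differed in both directions. Of the guidance genes measured, 14 of 26 were at least 1.5-fold higher and 7 lower in aged members, and 12 of 27 higher and 8 lower in adult members; the medians were 0.66 and 0.33. Over all measured genes 12.4% were higher and 7.5% lower in aged members, and 7.79% and 7.55% in adult members. The membrane-bound ephrin Efna5 stood at 673 CPM in aged members, against 179 CPM in other aged fibroblasts, and at 740 CPM in adult members, against 147 CPM in other adult fibroblasts. Robo1, a receptor of Slit proteins, had log2 ratios of 1.56 and 2.30, and Flrt3, a ligand of Unc5 receptors, 2.29 and 2.16, with the aged library first. Slit2, a secreted ligand of Robo1, was lower, at 10.3 and 25.9 CPM in the aged pair and at 5.88 and 56.3 CPM in the adult pair. In the list of neuronal cytoskeleton genes, 3 of 6 measured were higher and none lower in either library, these being Nav3, Nefl and Nefm. The neurotrophin Ntf3 was lower (log2 ratios -2.88 and -2.59), while Ntrk3, the receptor that binds it, was higher (2.02 and 1.51).

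The pathways around the rule genes held genes on both sides. Over all measured genes 12.4% were higher and 7.5% lower in aged and 7.79% and 7.55% in adult members. Apart from Gabra2, 3 of 7 measured genes of GABA signalling were 1.5-fold higher and none lower in aged members, and 1 of 6 was higher and 2 lower in adult members; the subunit Gabre had log2 ratios of 0.63 and 1.09. Apart from Hpse2, 4 of 15 measured genes of heparan sulfate synthesis and editing were higher and 2 lower in aged members, and 2 of 15 were higher and none lower in adult members. Those 2 were Glce, an epimerase of the chain, at 213 and 74.6 CPM in the aged pair and 207 and 69.1 CPM in the adult pair, and Ext1, a polymerase of the chain, with log2 ratios of 1.23 in the aged and 1.08 in the adult library. The heparan sulfate carrier Gpc6, a glypican, stood at 1839 CPM in aged members, against 586 CPM in other aged fibroblasts, and at 1802 CPM in adult members, against 599.8 CPM in other adult fibroblasts. Apart from Rgs6, 2 of 7 measured RGS genes were higher and 1 lower in aged members, and 2 of 7 higher and 2 lower in adult members, among them Rgs20, which stood at a log2 ratio of 0.68 in the aged and 1.07 in the adult library. Of the other Mas-related receptors, Mrgpre stood at 18.2 and 4.08 CPM in the aged pair and at 11.4 and 5.93 CPM in the adult pair.

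Complement, chemokine and small proteoglycan genes were more often lower than higher in members. Over all measured genes 7.5% were 1.5-fold lower in aged and 7.55% in adult members. Of 14 complement genes measured, 9 were at least 1.5-fold lower in aged and 8 in adult members, with 1 higher in each, and the medians were -0.88 and -0.68; besides C7 they include Masp1 (-2.57 in the aged and -3.29 in the adult library) and Clu (-2.56 and -2.56). Of chemokine and cytokine genes, 12 of 19 measured were lower in aged members and 10 of 18 in adult members, with 1 higher in each. The chemokine Cxcl14 stood at 0.935 CPM in aged members, against 243 CPM in other aged fibroblasts, and at 26.1 CPM in adult members, against 303 CPM in other adult fibroblasts. Of 9 small leucine-rich proteoglycans measured, 5 were lower and 1 higher in aged members and 4 lower and 1 higher in adult members; the aged 5 include Dcn, which the rule used. The furthest was biglycan, Bgn, at 49.1 and 490 CPM in the aged pair and at 41.8 and 490 CPM in the adult pair. Genes that label other fibroblast sets of this tissue were mostly lower, 15 of 19 in the aged and 14 of 18 in the adult library, with medians of -2.39 and -2.07. Those sets were part of the other fibroblasts compared here. A lower level in members thus follows in part from how these genes were chosen, and the count is a description only. Other matrix lists held genes in both directions. Of 20 collagen genes measured, 4 were higher and 7 lower in aged members and 1 higher and 6 lower in adult members. Of basement membrane genes, 3 of 12 were higher and 4 lower in aged members and 2 of 11 higher and 4 lower in adult members. Of elastic fibre genes, 6 of 23 were higher and 9 lower in aged members and 5 of 22 higher and 8 lower in adult members. Of 23 proteases and inhibitors, 4 were higher and 5 lower in aged members and 2 higher and 5 lower in adult members.

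Members were mostly cells of female mice. A cell was called female where Xist was found and none of 4 Y-linked genes was, and male in the reverse case; female-called were 113 of 120 sex-called aged members (94.2%) and 260 of 289 sex-called adult members (90.0%), against 39.9% and 53.3% of the other fibroblasts. Read the other way, 5.48% of female-called aged fibroblasts (113 of 2062, 95% Clopper-Pearson interval 4.54 to 6.55%) and 9.40% of female-called adult fibroblasts (260 of 2765, 8.34 to 10.6%) were members. Of male-called fibroblasts, 0.238% were members in the aged library (7 of 2939, 0.0958 to 0.490%) and 1.31% in the adult library (29 of 2221, 0.876 to 1.87%). With each cell thinned to 8000 UMIs the female shares were 3.34 and 6.29% and the male shares 0.0809 and 0.435% in the aged and adult libraries. How many of the 6 mice in each pool were female, and how many of them gave members, is not given, so sex and single animals cannot be told apart.

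**Figure D4:**
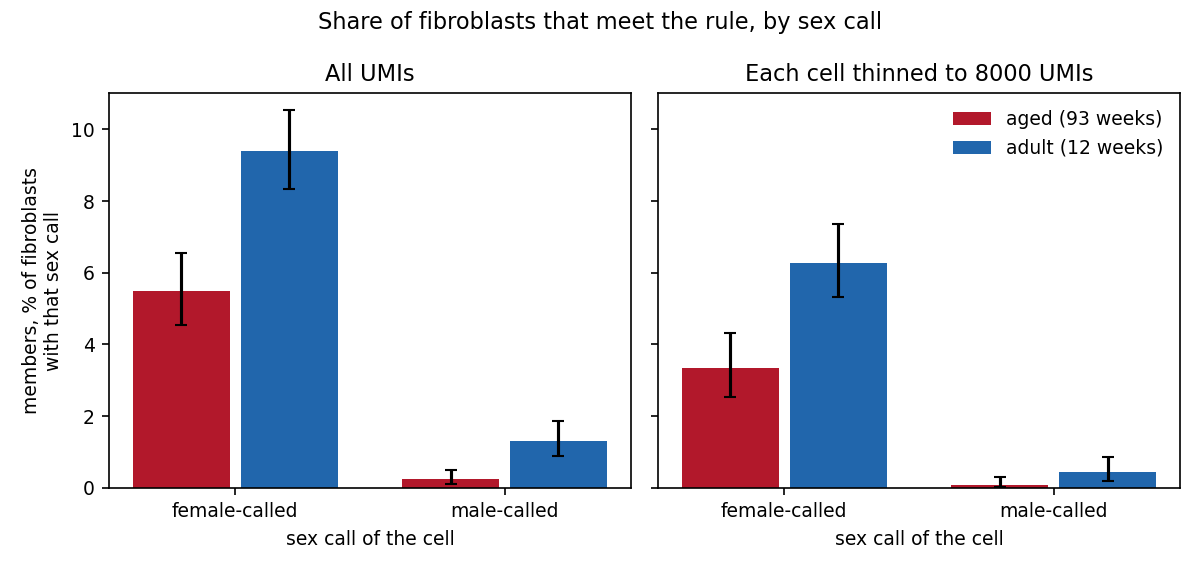
Members as a percentage of fibroblasts with a female or male sex call in the aged and adult libraries, with 95% Clopper-Pearson intervals, using all UMIs (left) and after thinning each cell to 8000 UMIs (right). The female shares, 5.48% and 9.40% at full depth, lay above the male shares, 0.238% and 1.31%, in both libraries.

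The rule genes and Krt19 were themselves higher in female-called fibroblasts as a whole, members included. Mrgprg stood at 115 CPM in female-called and 5.96 CPM in male-called aged fibroblasts, and at 110 and 28.0 CPM in the adult pair. Hpse2 stood at 32.1 and 2.76 CPM in the aged pair and at 142 and 44.7 CPM in the adult pair, and Krt19 at 65.2 and 8.21 CPM and at 83.9 and 14.0 CPM. Nav3 was closer, at 504 and 440 CPM in the aged pair and at 571 and 301 CPM in the adult pair. Within female-called cells alone, members still stood above other fibroblasts, with log2 ratios in the aged and adult libraries of 1.57 and 1.63 for Krt19, 1.95 and 2.08 for Nav3, 2.20 and 3.21 for Akr1c18, 2.93 and 2.64 for Duox2 and 2.84 and 2.71 for Aldh1a3. Among female-called cells 3.86% of measured genes were 2-fold higher and 4.27% lower in aged members, and 2.96% and 4.72% in adult members.

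The receptors and enzymes of sex steroids, a list added after the sex calls were seen, were in part higher in members. Of 7 measured, 4 were at least 1.5-fold higher in aged and 3 in adult members, and none lower, where 12.4% and 7.79% of all measured genes were higher. Among female-called cells 4 of 8 measured were higher and 1 lower in aged members, and 3 of 7 higher and none lower in adult members. The estrogen receptor Esr1 stood at 151 CPM in aged members, against 81.5 CPM in other aged fibroblasts, and at 131 CPM in adult members, against 66.0 CPM in other adult fibroblasts. The other 2 higher in both libraries were Akr1c18 and Akr1c14, the second with log2 ratios of 1.43 in the aged and 0.65 in the adult library but 0.65 and 0.04 among female-called cells. Akr1c genes are near copies of each other, and counting by the authors can split their reads.

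Clustering of the 11261 fibroblasts without the 4 rule genes, Pdgfra and Dcn gave 19 clusters. Members fell mainly into 1 of them in the adult library and into 2 in the aged library. Cluster 2 held 61 of 134 aged members (45.5%) and 208 of 307 adult members (67.8%), and 94.4% of its sex-called aged cells and 94.0% of its adult cells were female. Its leading genes included Gabra2, Hpse2, Bmp6, Rgs6, Krt19, Thsd4, Efna5 and Mrgprg, although the 4 rule genes were kept out of the clustering. Members were a minority of it, 18.9% of 323 aged and 26.5% of 784 adult cells, and 100 aged and 185 adult cells of cluster 2 had 2 rule genes. The non-members of the cluster had Nav3 at 1205 CPM in the aged and 1108 CPM in the adult library, well above the 416 and 346 CPM of all other fibroblasts. Krt19 and Nav3 were not kept out of the clustering, so their levels in a cluster are not independent of it.

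Cluster 16 was nearly all from the aged library, with 161 aged and 5 adult cells, and held 42 aged members (31.3%) and 4 adult members. All 152 of its sex-called aged cells were female, and it was led by Ltc4s, Susd4, Duox2, Lrrc7 and Col6a5. Its aged members had Mrgprg at 768 CPM and its aged non-members at 743 CPM, but Gabra2 at 92.1 and 0.576 CPM and Hpse2 at 99.3 and 12.7 CPM. Mrgprg was found in 89.9% of these 119 non-members, so the rule took up only some of the Mrgprg-high cells of this cluster. Cluster, library and single mice cannot be told apart here.

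The male-called members of the adult library sat mostly in another cluster. Cluster 11, led by Ctla2a, Dmkn and Krtdap, held 27 adult members, of which 26 were male-called, and 1 aged member. They had Mrgprg at 161 CPM, against 429 CPM in the adult members of cluster 2, and Krt19 at 19.04 CPM, against 203 CPM, and Nav3 at 1060 CPM, against 1867 CPM. Cluster 13 held 11 aged and 25 adult members and cluster 5 held 5 and 23. In cluster 5 the adult members had Krt19 at 350 CPM and Nav3 at 544 CPM, the highest Krt19 and the lowest Nav3 of the adult sets of members with at least 23 cells. The label thus covers cells of several clusters that share the rule genes and differ in the genes around them.

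Members were scarcer in the aged library. They made up 1.92% of all aged cells (95% interval 1.61 to 2.27%) and 4.20% of all adult cells (3.75 to 4.69%), and 2.37% of 5660 aged fibroblasts (1.99 to 2.80%), against 5.48% of 5601 adult fibroblasts (4.90 to 6.11%). After thinning to 8000 UMIs, which left out 23.5% of the cells of each library, the shares of fibroblasts were 1.38% (1.06 to 1.76%) in the aged and 3.54% (3.02 to 4.12%) in the adult library. The log2 ratio of the shares was -1.21, and it was -0.40 when Hpse2 was dropped from the rule and 2 of the remaining 3 genes were asked for. Hpse2 stood lower in the aged library outside the members as well, at 10.7 CPM in other aged and 70.6 CPM in other adult fibroblasts, and at 23.1 CPM in aged and 255 CPM in adult smooth muscle cells. Among female-called fibroblasts alone the log2 ratio of the shares was -0.78.

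Within members, aged and adult cells differed by at least 2-fold in few genes: 103 of 9110 measured (1.13%) were higher and 148 (1.62%) lower in aged members, within the members of cluster 2, 64 of 7898 (0.81%) and 186 (2.36%), and in other fibroblasts 43 of 8784 (0.49%) and 78 (0.888%). Small sets of cells give larger chance differences, so these counts do not show that members differ more with age. Of the 12 highest genes, Itm2a, Angptl4, Gm12840, Igf2bp2 and Gap43 had log2 ratios of at least 1.67 among members of cluster 2 as well. The other 7 had smaller ones there.

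Itm2a, a membrane protein first described in cartilage cells, stood at 124 CPM in aged members and 15.5 CPM in adult members and was found in 65.7% and 7.49% of them. Its log2 ratio was 2.92 (2.57 to 3.28), and 4.17 (3.49 to 4.86) in cluster 2 members; in other fibroblasts it was 1.75. Itm2a was still lower in members than in the other fibroblasts, at 124 and 340 CPM in the aged library. Angptl4, a secreted inhibitor of lipoprotein lipase, stood at 82.7 CPM in aged and 14.7 CPM in adult members, with a log2 ratio of 2.41 in all members, 2.44 within cluster 2 and 1.27 in other fibroblasts. Gap43, a growth-cone protein, stood at 49.5 and 10.0 CPM (2.20 in all members, 1.67 in cluster 2), and the RNA-binding protein Igf2bp2 at 16.8 and 2.75 CPM (2.25 and 2.62). In other fibroblasts Gap43 had a log2 ratio of 1.40 and Igf2bp2 one of 1.88, so the direction was shared with them.

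The other 7 were higher in the aged members of cluster 16, which held 42 of the aged members, than in those of cluster 2. Within cluster 2 the intervals of Slc7a8 (1.44, 0.54 to 2.31), Adam12 (1.19, 0.76 to 1.61) and Col6a5 (0.69, 0.30 to 1.08) still lay above 0. Slc7a8, a transporter of neutral amino acids, stood at 68.7 CPM in aged and 5.69 CPM in adult members, a log2 ratio of 3.38, but at 177 CPM in aged cluster 16 members, 18.6 CPM in aged cluster 2 members and 6.20 CPM in adult cluster 2 members. Col6a5, a collagen VI chain, stood at 324 CPM in aged and 52.8 CPM in adult members, and at 821, 81.6 and 50.2 CPM in the same 3 sets. Ltc4s, a leukotriene synthase, turned round: 61.2 CPM in aged and 11.4 CPM in adult members, yet 2.07 CPM in aged and 10.4 CPM in adult members of cluster 2, from 2 and 37 UMIs. Adam12, a membrane metalloprotease, had a log2 ratio of 2.72 in all members, and the ratios in all members and within cluster 2 were 2.80 and 1.02 for Nrep, 2.49 and 0.31 for Lgi1, a secreted synaptic protein, and 2.76 and 0.10 for Susd4, a complement regulator.

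**Figure D5:**
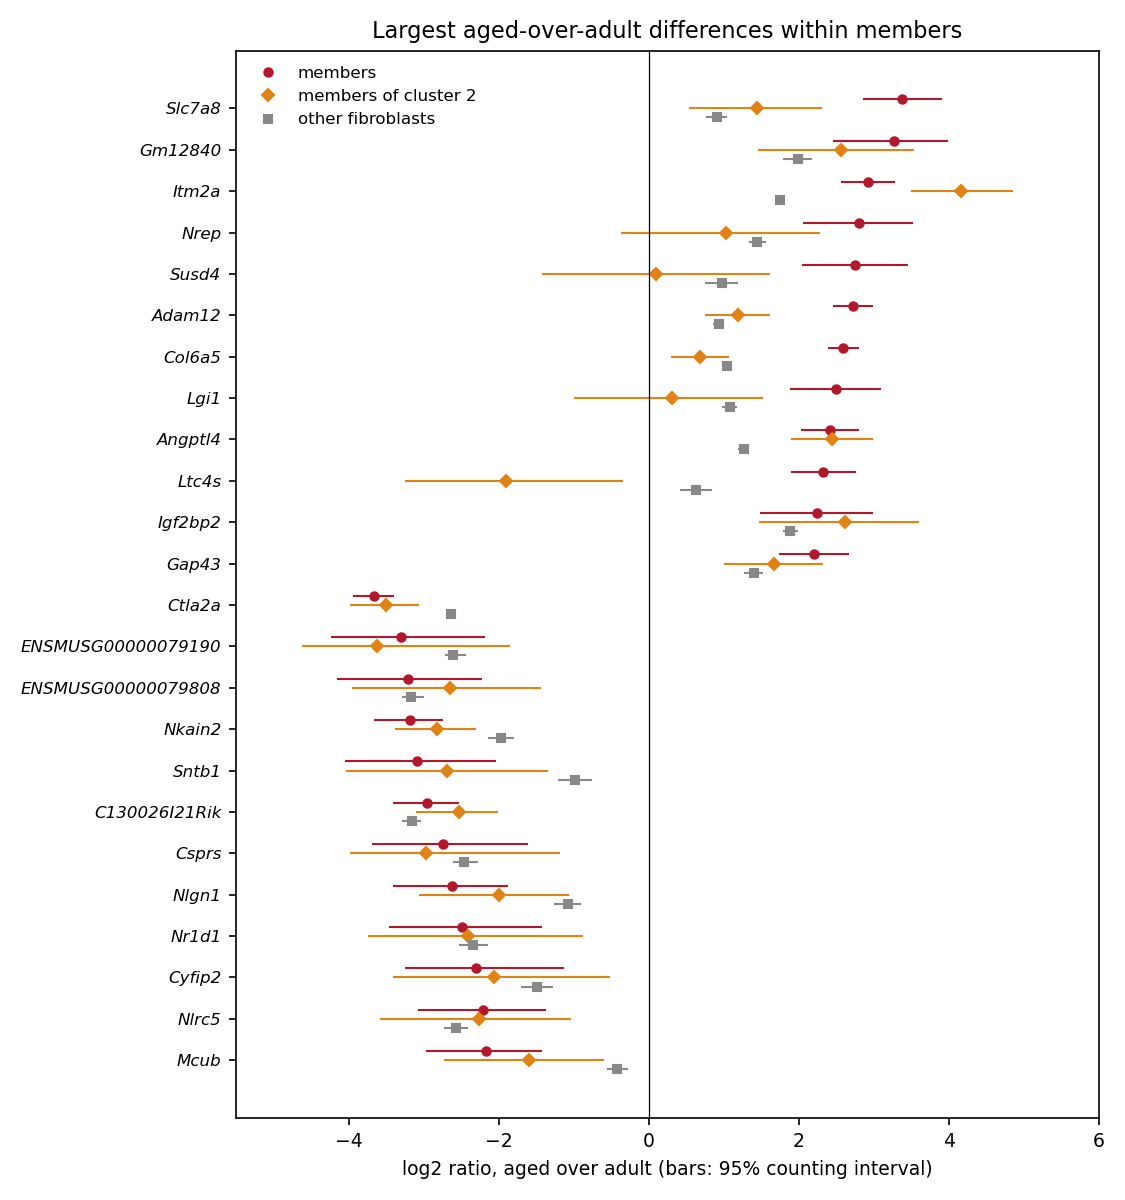
Log2 ratio of CPM, aged over adult, for the 12 highest and 12 lowest genes within members (circles), in the members of cluster 2 alone (diamonds) and in other fibroblasts (squares), with 95% counting intervals on the log2(CPM + 1) scale. The 12 lowest genes stayed below 0 in all 3 sets, whereas Ltc4s was at 2.33 in members and -1.90 in the members of cluster 2.

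The 12 lowest genes lay below 0 in cluster 2 members and in other fibroblasts too. Nkain2 stood at 18.2 CPM in aged and 174 CPM in adult members, with a log2 ratio of -3.18 (-3.65 to -2.74), and of -1.97 in other fibroblasts. Ctla2a, related to inhibitors of cathepsins, stood at 50.9 CPM in aged and 657 CPM in adult members (-3.66). The tenth of members with most Ctla2a UMIs held 99.1% of them in the aged and 97.9% in the adult library, so both levels rest on few cells. Sntb1 (-3.08), the adhesion protein Nlgn1 (-2.62), Cyfip2 (-2.29) and Mcub (-2.17), an inhibitory subunit of the mitochondrial calcium channel, had ratios in other fibroblasts of -0.99, -1.08, -1.49 and -0.42. The tenth of adult members with most UMIs held 88.2% of the Sntb1, 98.5% of the Nlgn1 and 89.1% of the Cyfip2 UMIs, and 53.7% of the Mcub UMIs. For Mcub the interval in members, -2.97 to -1.42, did not reach the value in other fibroblasts, and that difference was not tested. ENSMUSG00000079190, ENSMUSG00000079808, C130026I21Rik and Csprs had log2 ratios of -3.31, -3.21, -2.95 and -2.74 in members, and of -2.60, -3.16, -3.16 and -2.46 in other fibroblasts. The clock repressor Nr1d1 had -2.49 in members and -2.34 in other fibroblasts.

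Antigen presentation genes were lower in aged members. Of 16 class I presentation genes measured, 10 were at least 1.5-fold lower and none higher, with a median log2 ratio of -0.80, where 4.5% of all measured genes were 1.5-fold higher and 6.09% lower. Within cluster 2 there were 11 of 16 lower (median -0.86; all measured genes, 4.99% higher and 7.71% lower), and in other fibroblasts 10 of 16 (median -0.76; 1.81% and 3.73%). Nlrc5, the activator of class I genes, stood at 4.21 CPM in aged and 22.9 CPM in adult members (-2.20), B2m at 737 and 1645 CPM (-1.16) and H2-K1 at 388 and 864 CPM (-1.15). H2-Q6 had -1.20, and reads of near-identical class I genes can be split between copies. Of 21 interferon response genes, 6 were lower and none higher in aged members (median -0.45), among them Igtp (-1.46), Irgm1 (-1.19), Gbp7 (-1.07) and Iigp1 (-0.98). Within cluster 2 members 9 of 21 were lower (median -0.26), and in other fibroblasts 11 of 21 (median -0.67), with none higher.

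The collagen counts differed between all members and cluster 2, a difference that was not tested. Of 18 collagen genes measured, 11 were at least 1.5-fold higher and 1 lower, with a median of 0.85, against 4.5% and 6.09% of all measured genes. Within cluster 2 members 3 of 17 were higher and 2 lower (median 0.36; all measured genes, 4.99% and 7.71%). In other fibroblasts 9 of 21 were higher and none lower (median 0.50; 1.81% and 3.73%). Col3a1 stood at 4385 CPM in aged and 1840 CPM in adult members, with a log2 ratio of 1.25, but of 0.36 within cluster 2 and 1.26 in other fibroblasts. Col5a3 had 1.52 in all members and 0.83 within cluster 2, and Col6a2 1.36 and 0.50. The matrix protein Postn, periostin, stood at 848 and 202 CPM, with a log2 ratio of 2.06 in all members, 0.78 within cluster 2 and 1.96 in other fibroblasts. Sparc, a collagen-binding protein, stood at 4748 and 2019 CPM, with 1.23 in all members and 0.63 within cluster 2.

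Of the signalling genes, the guidance receptor Robo1 stood at 127 CPM in aged and 310 CPM in adult members (-1.28, and -0.85 within cluster 2), and the semaphorin Sema3a stood at 47.2 and 15.9 CPM (1.51 and 1.91). The ephrin receptor Epha3 stood at 134 and 55.9 CPM (1.24 and 1.31), while its ratio in other fibroblasts was 0.17. No gene of 22 measured in the respiratory chain list or of 23 in the ribosomal protein list was past 1.5-fold in either direction in members.

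Among the rule genes and label genes, whose levels in members the rule partly fixes, Hpse2 had the largest ratio of aged over adult, -1.53 in members, -1.18 within cluster 2 and -2.61 in other fibroblasts. Mrgprg was 0.36 in members, but -0.25 in cluster 2 members and -0.40 in other fibroblasts, and Rgs6 0.47, 0.33 and 0.75. Gabra2 was -0.06 (-0.28 to 0.15), Krt19 -0.22 (-0.40 to -0.04) and Nav3 -0.12 (-0.18 to -0.06) in members.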

How the data were processed

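Single-cell transcript counts of 2 libraries, aged (93 weeks) and adult (12 weeks), each from 6 pooled mice, were used as the authors deposited them: natural log values, ln(1 + UMIs scaled to 10000 per cell), as the values show. Per the submitters' processing notes, Seurat 5.0.3 and the builds GRCm39 and mm10 were named; the sources used here do not say which build served which step or name an aligner. Whole UMIs were recovered from every value (tolerance 0.01). The aged rows carry no usable names and were named by the adult row order: over shared barcodes, Pearson r was 0.999 for the same rows and at most 0.0634 for shifted rows. The 6977 shared barcodes were kept in the adult library only. There were 0 other per-sample columns.

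UMIs were summed over cells, scaled to CPM and compared as log2(CPM + 1), which understates differences of low genes. Intervals are exact 95% Poisson-ratio intervals on that scale and Clopper-Pearson intervals for shares; both cover counting error only, since cells are not replicates, and no p-value is given. A gene counted as measured when found in 10% of cells of either set with 50 UMIs in all. No doublet caller was run; dropping cells with at least 2 core markers of another class was an alternative. The genes named are the 15 highest and 10 lowest of the adult members, the 12 highest and 12 lowest with age, the rule and label genes, without sex-linked, haemoglobin and salivary genes, and up to 4 genes past 1.5-fold of each list described, by size. Some genes that this rule names are not reported here. Members and lists were chosen with earlier results of these data known. The comparison was run on simulated Poisson counts drawn from the mean levels of adult members, with known changes in some genes. Those counts held no spread between cells or mice and did not try the filter on the share of cells. That run therefore covers counting error only. Python 3.11.15, numpy 2.4.6, scipy 1.17.1, pandas 2.3.3, scikit-learn 1.9.0, igraph 0.11.9 (Leiden clustering: 2000 variable genes, 30 components, 15 neighbours) and matplotlib 3.10.9 were used.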

Additional observations from a re-analysis of the deposited data

Results flagged for a closer look

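The log2 ratio of aged over adult had opposite signs in members and in other fibroblasts, with neither 95% counting interval including 0, for 5 of the genes named, sex-linked genes left out. It was 0.36 in members and -0.40 in other fibroblasts for Mrgprg, and -0.12 and 0.27 for Nav3. It was 0.71 and -0.37 for Gas6, 0.45 and -0.29 for Inmt, and 1.18 and -0.40 for C7, which was found in under 10% of members of either library. With 1 library per age these differences were not tested. Among female-called members alone the values were -1.87 for Gas6, -1.33 for Inmt and -2.19 for C7, which have the sign of the other fibroblasts.

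In the copies of adult members that the deposited aged table holds, and that no comparison used, the salivary gene Dcpp2 had 5 UMIs, against 0 in the same cells of the adult table. Dcpp1 had 2 and Dcpp3 had 1, against 0 each. Dcpp genes are near-identical copies, so their counts are uncertain.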

How the results depend on the processing

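The log2 share ratio of aged over adult, -1.21, was -0.77 with at least 2 rule genes, -2.30 with all 4, -0.40 with Hpse2 dropped from the rule, -0.88 with Gabra2 dropped, -0.78 in female-called and -2.45 in male-called cells, and -1.78 for members of cluster 2, an alternative chosen after seeing the data. Genes 2-fold higher in aged members numbered 103, against 37 with all cells as deposited, 56 with a pseudocount of 10 CPM, 52 with a filter of 25% of cells, 285 with no share filter and 64 in cluster 2. Genes 2-fold lower numbered 148, against 14, 39, 55 and 461 under the first 4 of these. With all cells as deposited, 156 of the 290 aged members carried barcodes of the adult table, so that setting compares adult cells in part with their own copies. Genes 2-fold higher in members in both libraries numbered 172, against 97 with the pseudocount of 10 CPM. Genes lower in both numbered 239, against 149 with that pseudocount, 122 with the 25% filter and 541 with no share filter. In cluster 2 the aged over adult ratio of Ltc4s reversed to -1.90, that of Mrgprg, 0.36 in all members, was -0.25 and that of Duox2, 0.86, was -0.68. The other named genes that changed sign there, Lrrc7, Krt19 and Gas6 among them, had intervals that include 0. The comparisons of genes were not run with all 4 rule genes (16 aged members) or in male-called cells (7 aged members), having under 50 cells. The causes were not tested. No paired analysis was possible because each age has 1 pooled library. With 134 aged members, low genes rest on few UMIs.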
